A study of Mus musculus with 20 samples.

Results

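Hemidesmosomes are the rivets that hold the basal keratinocytes of the epidermis to the basement membrane. The 9 genes described here encode their parts and the laminin anchor below them, and were chosen by name from the rows of the raw count table: Itga6 and Itgb4, Col17a1, Dst and Plec, Lama3 and Lamb3, and Itga3 and Itgb1. All 9 of 9 were found among the 25719 rows, and all 9 passed the filter on low counts that left 12424 genes for testing.

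The study measured RNA in keratinocytes sorted from ear and dorsal skin of mice, with 5 mice in each of 4 groups and 20 libraries in all. The cKO mice carried K14-CreERTam, a tamoxifen-inducible Cre driven by the keratin 14 promoter of basal keratinocytes, together with 2 floxed copies of Cyp11b1 (Cyp11b1 L2/L2), the gene for the enzyme that completes corticosterone synthesis. The controls were Cre-negative littermates with the same floxed alleles. All 4 groups received tamoxifen on 5 consecutive days and were sampled on day 6, so none was untreated: 2 groups had it in ethanol on the skin (20 µl on the ear and 100 µl on the dry-shaved back, here topical), and 2 by intraperitoneal injection in oil and ethanol (100 µl of 10 mg/ml, here systemic). Route therefore also differed in shaving and in ethanol on the skin, and genotype also in the presence of Cre. The labels give neither strain nor age nor sex. The study asked what loss of skin glucocorticoid synthesis does and whether it differs between the routes.

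In a hemidesmosome, the integrin pair of alpha 6 and beta 4 subunits and the transmembrane collagen XVII span the basal membrane of the cell. Plectin and the epithelial form of dystonin (BPAG1e) tie them inside to keratin filaments, and outside they bind the laminin trimer to which Lama3 and Lamb3 contribute chains. A second laminin receptor, the integrin pair of alpha 3 and beta 1 subunits, sits in focal adhesions linked to actin. Inherited loss of several of these proteins causes junctional or simplex forms of epidermolysis bullosa, in which skin blisters.

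Library totals ran from 11.59 M to 50.08 M counts, and mitochondrial genes took 1.87 to 7.49% of them. Summed levels of 12 satellite-like predicted genes exceeded 50 CPM (counts per M counts of the library) in 6 libraries, namely all 5 systemic controls and systemic cKO 2, where they ran from 79.4 to 37287 CPM; in the other 14 libraries they reached at most 42.5 CPM. This split coincides with route among the controls, and split and route cannot be told apart there. After injection it also nearly coincides with genotype, with 5 systemic controls and 1 systemic cKO library over 50 CPM. Within a group the split varied only among the systemic cKO. Fits below with the split as a covariate therefore take its effect from systemic cKO 2 alone, and cannot separate it from route or genotype. Cyp11b1 itself had 9 reads in the topical controls, 7 in the topical cKO, 2 in the systemic controls and 4 in the systemic cKO, with at most 6 in a library, so its counts say nothing of the deletion. Markers of basal keratinocytes (4 of 4 detected, summed 56946 to 97422 CPM) were abundant in every library, and the summed markers of fibroblasts, endothelium, melanocytes and epidermal immune cells reached at most 32.2, 9.48, 35.8 and 30.6 CPM. Those of hair follicle reached 44.4 CPM, those of Schwann cells 52.6 CPM, and those of sebaceous gland, which include lipid enzymes also made by keratinocytes, 232 to 3228 CPM.

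Promoters of the Col17a1 and Lamb3 genes are shown because these were the members whose levels followed each other most closely over the libraries, and one Itga3 promoter because it held the only AP-1 motif found among the members. RefSeq windows on build GRCm38.p6, running from upstream of a transcription start to just past it, were at hand for 5 of the 9 members, with 8 windows in all. The Col17a1 window is chr19:47691993-47692292 on the minus strand, the Lamb3 window chr1:193301993-193302292 on the plus strand, and the Itga3 window chr11:95069149-95069448 on the minus strand. Another Lamb3 window, chr1:193301744-193302043, overlaps the one shown. Another Itga3 window, chr11:95076665-95076964, covers the upstream end of the annotated gene and held no AP-1 match. The Itga3 window shown lies inside the gene. Sequences are given 5′ to 3′ in the direction of transcription, and capitals mark the AP-1 match.
Col17a1 promoter: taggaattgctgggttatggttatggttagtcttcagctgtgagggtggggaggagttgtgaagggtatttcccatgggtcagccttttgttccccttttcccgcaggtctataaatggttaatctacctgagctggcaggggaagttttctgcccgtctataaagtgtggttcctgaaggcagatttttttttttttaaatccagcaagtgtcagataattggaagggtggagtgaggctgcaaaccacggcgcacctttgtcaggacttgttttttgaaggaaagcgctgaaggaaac
Lamb3 promoter: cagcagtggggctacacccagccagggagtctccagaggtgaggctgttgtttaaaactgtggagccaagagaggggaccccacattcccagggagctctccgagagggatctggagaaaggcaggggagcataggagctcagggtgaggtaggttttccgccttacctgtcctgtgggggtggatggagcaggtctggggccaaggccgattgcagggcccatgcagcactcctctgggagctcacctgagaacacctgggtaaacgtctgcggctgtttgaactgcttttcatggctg
Itga3 promoter: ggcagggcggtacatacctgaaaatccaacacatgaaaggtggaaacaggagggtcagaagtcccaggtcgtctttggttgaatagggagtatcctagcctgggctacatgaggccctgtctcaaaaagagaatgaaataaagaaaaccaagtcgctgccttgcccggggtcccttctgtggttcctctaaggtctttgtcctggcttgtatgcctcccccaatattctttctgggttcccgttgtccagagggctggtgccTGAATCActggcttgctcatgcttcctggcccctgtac
The AP-1 motif was searched as TGANTCA, the glucocorticoid response element as GNACA and TGTNC set 3 bases apart, and the GC box as GGGCGG, on both strands. The AP-1 motif stood in 1 of the 8 member windows and in 7.81% of 32851 windows of all genes, and its match in Itga3 lies 12 bases after the start site. The glucocorticoid response element stood in 0 of the 8 member windows and in 0.475% of all windows. The GC box stood in 4 of the 8, against 35.7% of all, and in neither window of Lamb3 nor in that of Col17a1. These matches describe letters within short windows and show no binding.

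Levels of single genes are CPM with TMM (trimmed mean of M-values) scaling. For comparison between genes they are CPM per kb of exon union, means ± SD over the 20 libraries. Sums over gene lists, above and below, are CPM of the library total without TMM scaling. Col17a1 stood far above the other members at 696 ± 207 CPM per kb, a level higher than that of 99.19% of 12407 tested genes with a length. Lamb3 followed at 59.2 ± 20.6, Itgb4 at 36.8 ± 8.42 and Itgb1 at 28.8 ± 7.17 CPM per kb. Plec stood at 15.3 ± 4.01, Itga3 at 10.9 ± 3.06, Itga6 at 7.13 ± 2.30, Dst at 6.21 ± 2.39 and Lama3 at 5.36 ± 1.15 CPM per kb. Mean ± 1 SD separated Col17a1 from Lamb3 and Itgb1 from Plec, whereas every other pair of neighbours in this order overlapped. The least abundant member, Lama3, still exceeded 70.82% of genes per kb. Dividing by the longest coding transcript instead exchanged only Itga6 and Itga3, whose exon union is 9.025 kb for Itga6 against a longest coding transcript of 4.31 kb. Counts were summed over all isoforms of a gene, which matters most for Dst, with 14 coding transcripts and a 41.16 kb exon union, and for Plec with 21 coding transcripts. Exons of Plec overlap those of Parp10 on the same strand, and exons of Dst, Itgb4 and Lama3 overlap transcripts on the opposite strand (A930005N03Rik and Gm26788, B230344G16Rik, and Gm29200), so a share of reads there cannot be assigned without doubt.

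On build GRCm38 (GENCODE M21), the integrin genes lie at chr2:71745616-71858416 (Itga6, plus strand), chr11:115974709-116008412 (Itgb4, plus), chr11:95044474-95076801 (Itga3, minus) and chr8:128685654-128733200 (Itgb1, plus). Col17a1 lies at chr19:47646344-47692094 (minus), and its longest coding transcript has 54 exons. The plakin genes are the longest of the set by exon union, Dst at chr1:33908225-34308661 (plus) and Plec at chr15:76170974-76232574 (minus). The laminin chain genes lie at chr18:12333819-12583013 (Lama3, plus) and chr1:193207699-193343878 (Lamb3, plus).

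Within each gene the libraries spread widely. The ratio of the highest to the lowest library was smallest for Itgb1 at 1.99 and largest for Dst at 4.54. Estimated biological coefficients of variation ran from 0.210 for Lama3 to 0.344 for Dst, beside a median of 0.230 over all tested genes. In every sentence below that lists libraries, values follow the order of replicate numbers: 1, 3, 5, 6 and 7 for topical controls, 2, 3, 4, 5 and 7 for topical cKO, 1, 3, 4, 5 and 6 for systemic controls, and 2, 4, 5, 6 and 7 for systemic cKO.

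**Figure D1:**
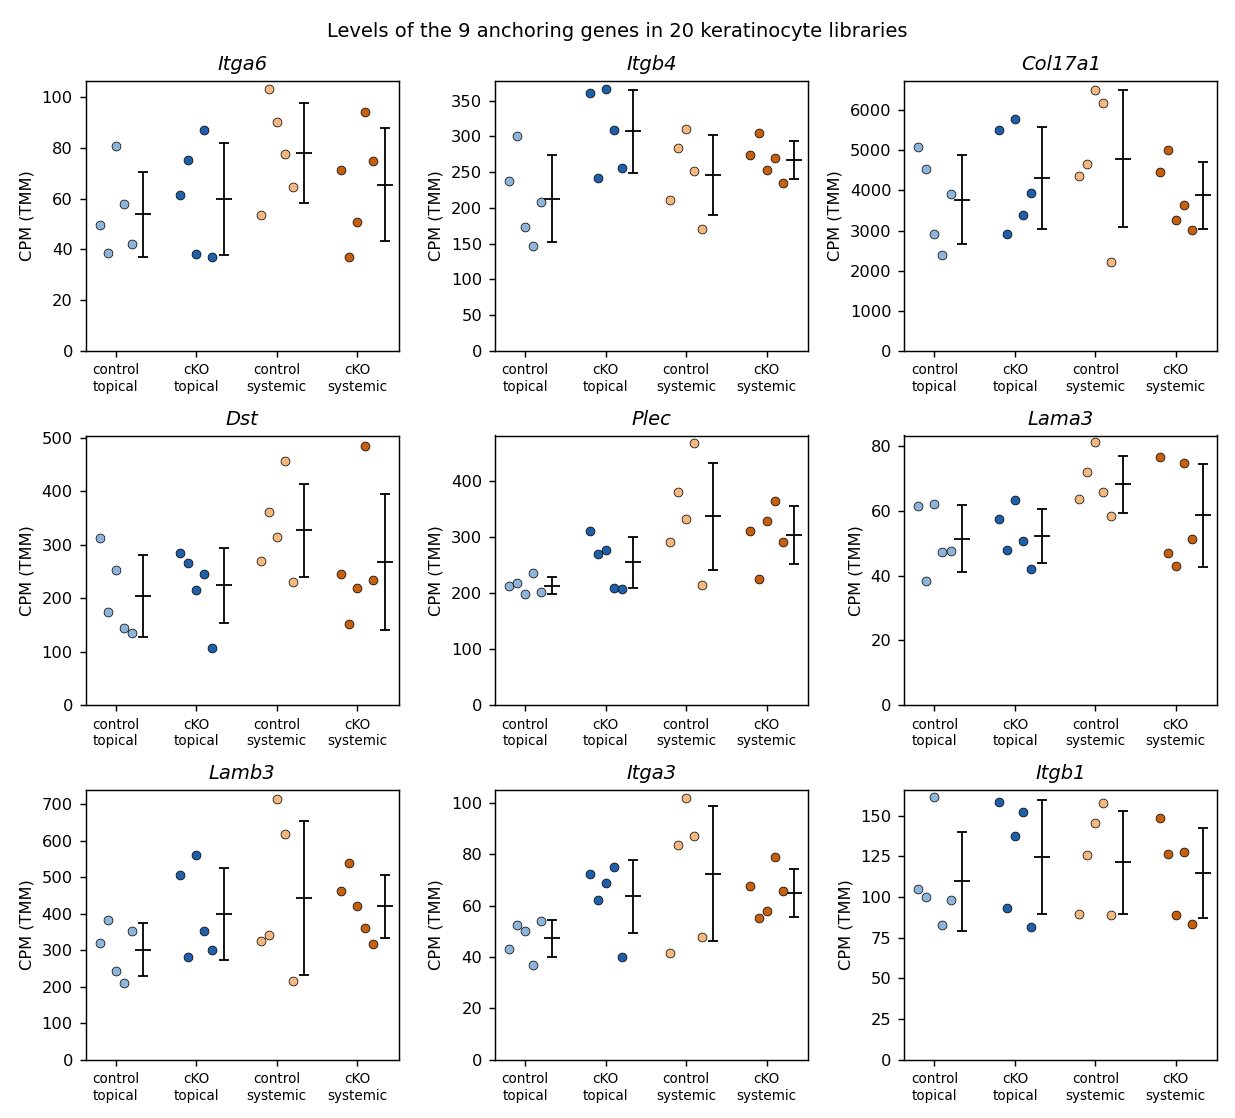
Each point is 1 library's CPM for 1 of the 9 genes, in 4 groups of 5 mice, with the group mean and SD beside the points and every axis starting at 0. In Plec the topical controls lie between 198 and 235 CPM and 4 of the 5 systemic controls lie above them, while in no panel do 2 groups compared in the text stand fully apart.

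Between cKO and control mice after topical tamoxifen, none of the 9 genes passed the threshold. By edgeR's quasi-likelihood test with Benjamini-Hochberg adjustment over all genes, 0 of 9 members had an adjusted p under 0.05, where 0.129% of all tested genes (16 genes, all higher in cKO) did. At an unadjusted p under 0.05 there was 1 member, Itgb4, against 5.66% of all genes. Fitted log2 fold changes of cKO against control were above 0 for 9 of 9 members and for 54.0% of all genes, with a median of 0.19 for the members and 0.020 for all. Leaving out a single library took Lama3 as low as -0.062 and Itga6 as low as -0.020. Groups without overlap occurred for 0 of 9 members, against 0.845% of all genes with cKO above and 0.555% with cKO below. The DESeq2 Wald test also called 0 of 9 members here, in the systemic genotype contrast, in the interaction and by route among cKO mice.

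Itgb4, the beta subunit best known from hemidesmosomes, gave the widest gap of this comparison. Its levels were 238, 301, 172, 146 and 207 CPM in the topical controls and 361, 242, 366, 309 and 256 CPM in the topical cKO. The cKO libraries 2, 4 and 5 exceeded every control, but control 3 exceeded cKO 3 and 7, so the groups overlapped. The means were 213 ± 60.2 and 307 ± 57.6 CPM (SD, n = 5 each), a log2 fold change of 0.53 (SE 0.21, 95% interval 0.098 to 0.95) with an adjusted p of 0.799 by edgeR's quasi-likelihood test. Its partner Itga6 went from 53.8 ± 16.9 to 59.8 ± 22.2 CPM (log2 fold change 0.16, 95% interval -0.41 to 0.72).

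The other receptor pair, Itga3 and Itgb1, did not pass either. Itga3 levels were 43.3, 52.4, 50.2, 36.7 and 54.0 CPM in topical controls and 72.3, 62.1, 68.8, 75.2 and 39.8 CPM in topical cKO. All cKO libraries but number 7 lay above every control, and number 7 lay below 4 of the 5 controls. The log2 fold change was 0.43 (SE 0.22, 95% interval -0.023 to 0.88, adjusted p 0.911 by edgeR). Itgb1, which also pairs with other alpha subunits, had a log2 fold change of 0.19 (95% interval -0.30 to 0.67).

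Among the laminin chains, Lamb3 had 302 ± 73.6 CPM in topical controls and 401 ± 126 CPM in topical cKO, with a log2 fold change of 0.41 (95% interval -0.20 to 1.01). Lama3 had nearly equal means, 51.4 ± 10.3 and 52.3 ± 8.35 CPM, and the narrowest interval of the members here, from -0.34 to 0.40. Col17a1 went from 3771 ± 1118 to 4310 ± 1280 CPM, with an interval from -0.42 to 0.80. For the plakins the intervals ran from -0.15 to 0.66 for Plec and from -0.51 to 0.78 for Dst. These intervals still allow changes of either sign for 8 of the 9 genes, so a missed threshold does not show equal levels. The summed level of 9 suprabasal keratinocyte markers (9 of 9 detected, none at 0) was 25927 to 37940 CPM in topical controls and 14124 to 24802 CPM in topical cKO. These sums, without TMM scaling, did not overlap, and their part in the members' values was not tested. Taken singly with TMM scaling, each marker overlapped between these groups, and the lowest adjusted p was 0.799 (Dsg1a, edgeR). In such bulk samples, fewer cells of a type and less RNA per cell cannot be told apart.

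After systemic tamoxifen, none of the 9 genes passed either. The count was 0 of 9, where 1.89% of all genes (235 genes) had an adjusted p under 0.05 by edgeR's quasi-likelihood test, and 0 of 9 at an unadjusted p under 0.05, against 15.3% of all. Fitted log2 fold changes were above 0 for 1 of 9 members, Itgb4, and for 49.5% of all genes, with medians of -0.16 and -0.0045. With the satellite-like split as a covariate, Lama3 (0.17), Lamb3 (0.062) and Itgb1 (0.29) turned above 0. These values in effect set systemic cKO 2 alone against the systemic controls. Groups without overlap occurred for 0 of 9 members, against 1.02% of all genes with cKO above and 0.918% with cKO below.

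Itgb4 had 211, 284, 310.2, 252 and 170.4 CPM in the systemic controls and 274, 304, 253, 269 and 234 CPM in the systemic cKO. The cKO libraries were the tightest of any group for this gene, with a coefficient of variation of 9.77%, and all lay within the range of the controls. Its log2 fold change was 0.12 (SE 0.21, 95% interval -0.31 to 0.55).

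The transmembrane collagen Col17a1 had 4361, 4649, 6516, 6183 and 2226 CPM in the systemic controls and 4459, 5006, 3271, 3635 and 3003 CPM in the systemic cKO. Controls 4 and 5 were the highest libraries of the study for this gene and control 6 the lowest, so the cKO libraries sat inside the control range. The log2 fold change of -0.30 (SE 0.29, 95% interval -0.92 to 0.31) was the lowest of the 9. Dst, the linker to keratin, had a fold change of -0.29 on the log2 scale with an interval from -0.93 to 0.35, and Itga6 one of -0.25 with an interval from -0.81 to 0.32. Lama3 was at 68.1 ± 8.71 CPM in the controls and 58.5 ± 15.98 CPM in the cKO. The intervals of all 9 members included 0. The suprabasal keratinocyte markers Lor and Flg2 were called higher in systemic cKO, 2 of 9 on that list, whose sums overlapped (19624 to 42361 CPM in controls and 22234 to 36056 CPM in cKO).

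Whether the genotype effect differed between routes was tested as an interaction, the systemic effect minus the topical one. Here 0 of 9 members passed, against 0.25% of all genes (31 genes), and 0 of 9 at an unadjusted p under 0.05, against 14.0% of all genes. All 9 estimates were below 0, as for the larger part of all genes (47.2% above 0), with medians of -0.41 for the members and -0.028 for all. With the satellite-like split as a covariate, Lama3 (0.14) and Itgb1 (0.10) turned above 0. These signs too rest on systemic cKO 2 alone and cannot tell split from route or genotype. Itga3 had the lowest estimate, -0.58 (SE 0.31, 95% interval -1.22 to 0.053, adjusted p 0.407 by edgeR's quasi-likelihood test). Itgb4 was at -0.41 (95% interval -1.01 to 0.20) and Lama3 closest to 0 at -0.25 (95% interval -0.77 to 0.28). Each of the 4 groups enters this contrast, so it is not independent of the comparisons above.

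The route of tamoxifen among the floxed controls gave the only call. Plec, the plakin that links integrin to keratin filaments, was higher after injection, and it was 1 of 9 members called where 18.3% of all genes (2277 genes, of which 1263, or 10.2% of all, were higher) were called, so the members' share was no larger than the background. At an unadjusted p under 0.05 there were 4 of 9 (Plec, Itga3, Lama3 and Dst), against 32.9% of all genes. Fitted log2 fold changes were above 0 for 9 of 9 members and for 50.1% of all genes, with medians of 0.53 and 0.00081. With the satellite-like split as a covariate, Lama3 (-0.10) and Itgb1 (-0.33) turned below 0. The split equals route among controls, so these signs rest on systemic cKO 2 alone and cannot tell split from route. Groups without overlap occurred for 0 of 9, against 7.54% of all genes with systemic above and 6.26% with systemic below. This contrast shares the topical control libraries with the topical genotype contrast.

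Plec had 213, 217, 198, 235 and 201 CPM in the topical controls and 290.1, 380.1, 331, 467 and 214 CPM in the systemic controls. Injected controls 1, 3, 4 and 5 lay above every topical control, while injected control 6 lay among them. The means were 213 ± 14.9 and 336 ± 95.002 CPM (SD, n = 5 each), a log2 fold change of 0.66 (SE 0.20, 95% interval 0.25 to 1.07, adjusted p 0.0237 by edgeR's quasi-likelihood test). Leaving out single libraries kept the call in 7 of 10 fits, and it was lost without systemic control 3, systemic control 5 or topical control 7 (adjusted p up to 0.0704). With no filter on low counts the adjusted p was 0.0552. With the satellite-like split as a covariate, the log2 fold change of Plec was 0.63 with an adjusted p of 0.945 by edgeR. The split's effect rests on systemic cKO 2 alone in that fit, which cannot tell split from route among controls.

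Itga3 had 41.6, 83.8, 102, 87.1 and 47.9 CPM in the systemic controls, beside the topical control values given above. Systemic controls 3, 4 and 5 exceeded every topical control, and systemic controls 1 and 6 fell within their range. Its log2 fold change of 0.61 (SE 0.22, 95% interval 0.16 to 1.06) had an adjusted p of 0.0534 and so missed the threshold. It passed without systemic control 1 (adjusted p 0.0131) or systemic control 6 (0.0297), and was highest without systemic control 4 (0.164). Itgb1 differed less, at 110 ± 30.2 and 121 ± 31.5 CPM, with a log2 fold change of 0.15 (95% interval -0.34 to 0.63).

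Dst, the second plakin, had 313, 174, 252, 145 and 135 CPM in topical controls and 271, 361, 315, 457 and 231 CPM in systemic controls. Systemic controls 3, 4 and 5 lay above every topical control, and topical control 1 lay above systemic controls 1 and 6. Its log2 fold change of 0.68 was the highest of the 9, but its spread left an adjusted p of 0.131 (SE 0.31, 95% interval 0.035 to 1.33, edgeR).

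The laminin chain Lama3 had 61.5, 38.4, 62.2, 47.2 and 47.5 CPM in topical controls and 63.5, 71.9, 81.0, 65.6 and 58.4 CPM in systemic controls. Only systemic control 6 lay below the highest topical control. The log2 fold change was 0.41 (SE 0.18, 95% interval 0.036 to 0.78, adjusted p 0.116 by edgeR's quasi-likelihood test). Its partner chain Lamb3 had 321, 383, 243, 209 and 354 CPM in topical controls and 326, 342, 714, 618 and 217 CPM in systemic controls. Systemic controls 4 and 5 alone stood above the topical range, and the log2 fold change was 0.55 (95% interval -0.050 to 1.16).

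Itga6 was at 53.8 ± 16.9 CPM in topical controls and 77.9 ± 19.7 CPM in systemic controls, with a log2 fold change of 0.53 (95% interval -0.033 to 1.10). Its partner Itgb4 had a log2 fold change of 0.20 (95% interval -0.22 to 0.63), and Col17a1 one of 0.34 (95% interval -0.27 to 0.96). A set of 10 early response genes that tissue dissociation induces, such as Fos, Egr1 and Hspa1a (10 of 10 detected), summed to 20792 to 29033 CPM in topical controls and 37691 to 48228 CPM in systemic controls, without overlap, and its part in the members' values was not tested.

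Among the cKO mice, route moved none of the 9 genes past the threshold, where 9.22% of all genes (1145 genes) were called by edgeR's quasi-likelihood test. None of the 9 had an unadjusted p under 0.05 either, against 23.1% of all genes, and 6 of 9 log2 fold changes were above 0, against 48.5% of all. Groups without overlap occurred for 0 of 9, against 4.07% of all genes with systemic above and 3.32% with systemic below. Plec had 311, 269.9, 276, 208 and 206 CPM in topical cKO and 309, 226, 327, 364 and 291 CPM in systemic cKO. The highest topical cKO library exceeded 3 of the 5 systemic ones, and the log2 fold change was 0.26 (SE 0.20, 95% interval -0.15 to 0.66). Itgb4 had the lowest estimate at -0.20 (95% interval -0.63 to 0.23) and Dst one of 0.25 (95% interval -0.39 to 0.90). For Itga3 the estimate was 0.029 (95% interval -0.42 to 0.48). The 10 early response genes summed to 22688 to 25929 CPM in topical cKO and 33593 to 49229 CPM in systemic cKO, again without overlap. The 9 suprabasal keratinocyte markers (9 of 9 detected, none at 0) summed to 14124 to 24802 CPM in topical cKO and 22234 to 36056 CPM in systemic cKO, with overlap, and their part in the members' values was not tested.

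**Figure D2:**
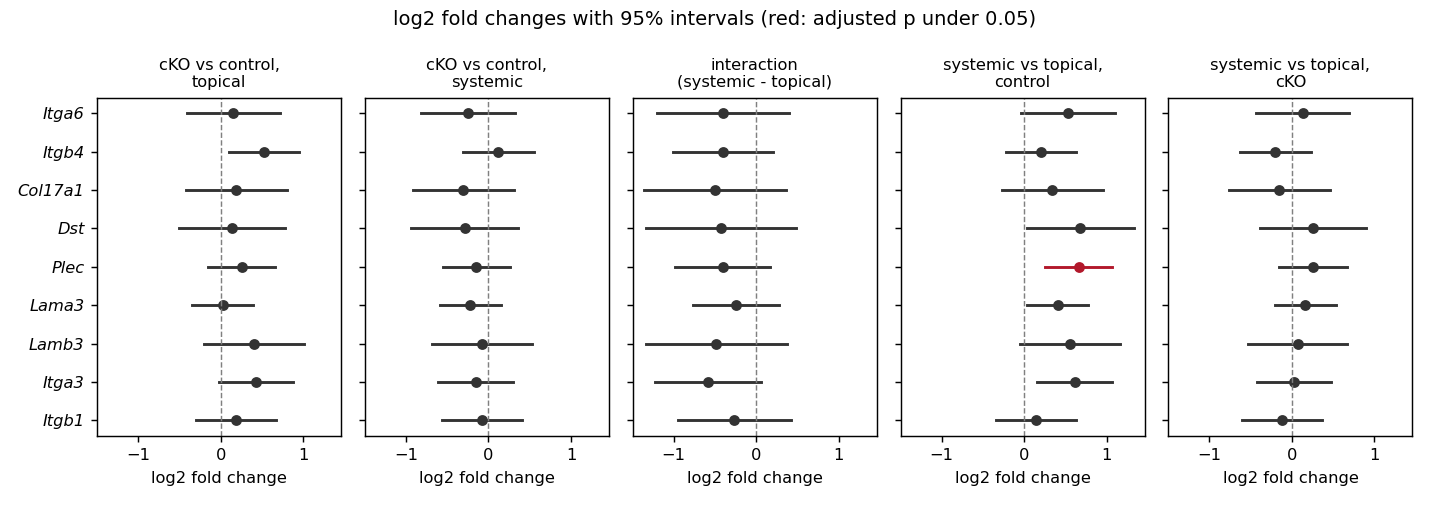
Points are edgeR log2 fold changes of the 9 genes in 5 contrasts, lines their 95% intervals, and red marks an adjusted p under 0.05. Plec by route among controls, at 0.66, is the only point in red, and every interaction interval includes 0.

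Partner subunits did not all follow each other from library to library. Pearson's r of log2 CPM (prior count 2) over the 20 libraries is given for the 36 pairs of members as a description, since libraries share depth and composition. The median was 0.54, from -0.14 to 0.87, with 3 pairs below 0, and 0.50 once each group's mean was removed. For comparison, the members' median r with all 8095 genes of at least 5 CPM was -0.0070.

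Col17a1 and Lamb3 formed the closest pair, with r of 0.87 (Spearman's rho 0.81). It was 0.91 on deviations from the group means and 0.80 without the 2 libraries farthest from the Col17a1 median. Itgb4 followed both, with r of 0.78 to Lamb3 and 0.74 to Col17a1, or 0.67 and 0.57 without the 2 farthest libraries. Another set held Dst, which had r of 0.74 to Itga6, 0.74 to Lama3 and 0.72 to Plec.

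Itga6 and Itgb4, whose proteins exist as a pair, had r of -0.075 (rho 0.0015). Their ratio per kb of exon union, Itgb4 over Itga6, ran from 2.75 in topical control 5 to 12.3 in topical cKO 4. The size of this ratio depends on the length used. Mean levels were 36.8 and 7.13 CPM per kb of exon union, but 41.6 and 14.9 per kb of longest coding transcript. Topical cKO 4 had the highest Itgb4 of the study, 366 CPM, with an Itga6 of 38.4 CPM, whereas systemic control 3 had the highest Itga6, 103 CPM, with an Itgb4 of 284 CPM. By group the ratio was 5.71 ± 2.94 in topical controls, 7.49 ± 3.35 in topical cKO, 4.11 ± 0.677 in systemic controls and 5.92 ± 2.79 in systemic cKO. These ranges overlapped.

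The chains Lama3 and Lamb3 had r of 0.32 (rho 0.29), and Lamb3 over Lama3 per kb ran from 6.05 to 18.7. Itga3 and Itgb1 followed each other more closely, with r of 0.67 and a ratio of Itgb1 over Itga3 per kb between 1.78 and 4.51. Itga3 was the member with the highest median r to the other 8, at 0.64.

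**Figure D3:**
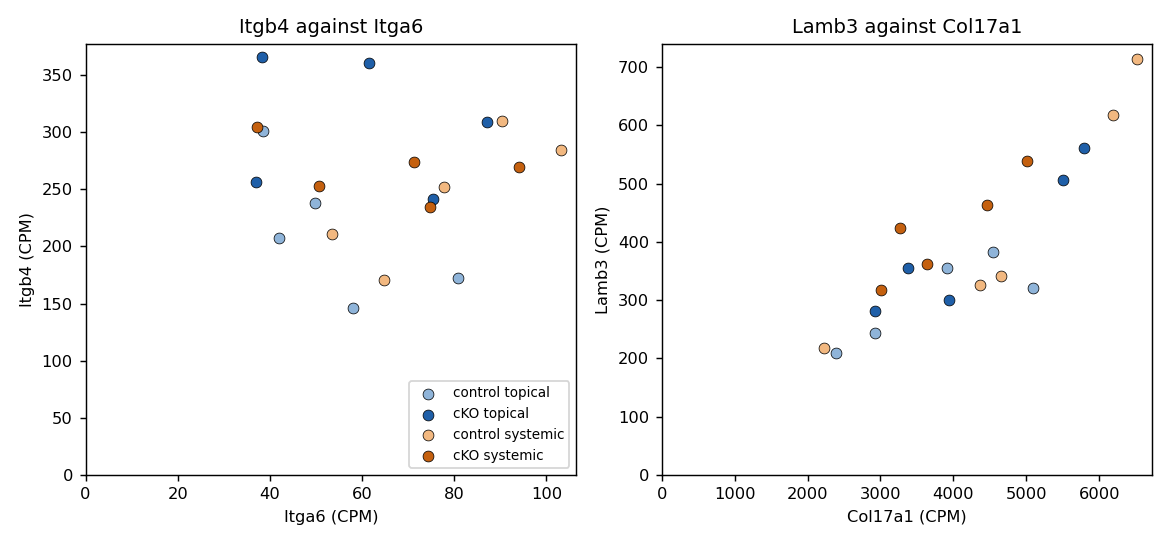
Each point is 1 of the 20 libraries, coloured by group, with CPM on both axes. The left panel sets Itgb4 against its protein partner Itga6 (r of -0.075), and the right panel sets Lamb3 against Col17a1 (r of 0.87), where the points rise together.

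**Figure D4:**
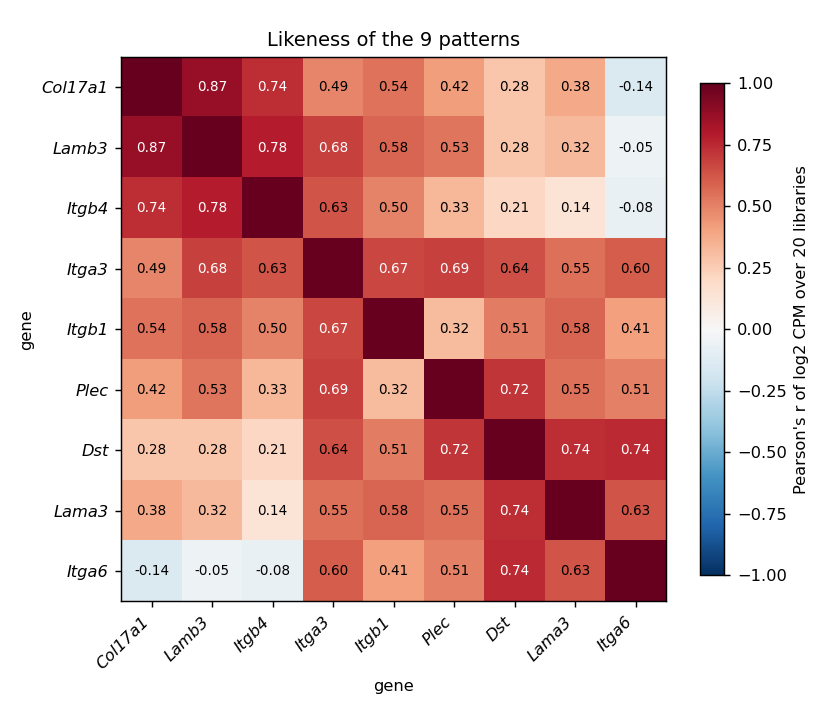
Cells give Pearson's r of log2 CPM over 20 libraries for each pair of the 9 genes, ordered so that close patterns are neighbours. Col17a1, Lamb3 and Itgb4 form one block (0.74 to 0.87), and Itga6 is below 0 with each of these 3 genes.

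The libraries high in most members were not spread evenly. Systemic control 4 was among the 5 highest libraries for 8 of the 9 genes and systemic control 5 for 7. Topical control 6 and topical cKO 7 were each among the 5 lowest for 7 of the 9. Systemic control 6 was among the 5 lowest for 5 of the 9, so the systemic controls held both very high and very low libraries.

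Outside the members, the genes most like the mean pattern of the 9 included Thbs1 (r of 0.88 over 20 libraries), Cdh13 (0.86), Tln1 (0.82) and Tbc1d8 (0.81). Tln1 encodes talin, which joins beta 1 integrins to actin. Without the 2 libraries farthest from the median of the mean pattern, r was 0.84 for Thbs1, 0.82 for Cdh13, 0.73 for Tln1 and 0.70 for Tbc1d8. Most like Itgb4 were Rin1 (0.86), Trp53i11 (0.84) and Lasp1 (0.79), and most like Lamb3 were Actn4 (0.90), G3bp1 (0.87) and Slc3a2 (0.87).

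Some of the other laminin and basement membrane genes were called by route. Of 16 tested (Nid2 fell under the count filter), 8 were higher in systemic than in topical controls and 0 lower, beside the 18.3% of all genes called. The median log2 fold change of the 16 was 0.57. The early response genes given above were also higher in systemic controls, without overlap, and their part in this list's values was not tested. Lama5, an alpha chain of other basement membrane laminins, rose from 13.2 ± 2.15 to 46.7 ± 14.0 CPM (log2 fold change 1.83, SE 0.30, adjusted p 0.00044 by edgeR), with all 5 systemic controls above all topical ones. Col7a1, whose product forms the anchoring fibrils below hemidesmosomes, rose by 1.41, and Agrn, a heparan sulfate proteoglycan, by 1.24 on the log2 scale. Frem2 (1.23) and Col4a6 (0.71), a chain of basement membrane collagen, were also higher, and 3 more of the 16 were called. The calls of these 5 named genes held in all fits that left out a single library, with an adjusted p of at most 0.0355 (Col4a6, without systemic control 3).

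Among the cKO mice, 4 of the 16 were higher after injection and 0 lower, with 9.22% of all genes called: Col7a1 (0.89), Agrn (0.71), Col4a6 (0.66) and Col4a5 (0.60). In the same contrast 6 of the 9 suprabasal keratinocyte markers were called higher, among them Flg2 (3.71) and Lor (2.54), and 0 lower, and their part in the list's values was not tested. Leaving out single libraries lost Col7a1 in 8 of 10 fits (adjusted p up to 0.137, without systemic cKO 2) and Col4a6 in 5 of 10 (up to 0.0644, without systemic cKO 6). In the genotype contrasts 0 of the 16 passed after either route, where 0.129% and 1.89% of all genes did. At an unadjusted p under 0.05 there was 1 of 16 after topical treatment, beside 5.66% of all genes, and 3 of 16 after injection, beside 15.3%. With the satellite-like split as a covariate, 0 of the 16 were called by route among controls and 2 among cKO. That fit takes the split's effect from systemic cKO 2 alone.

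**Figure D5:**
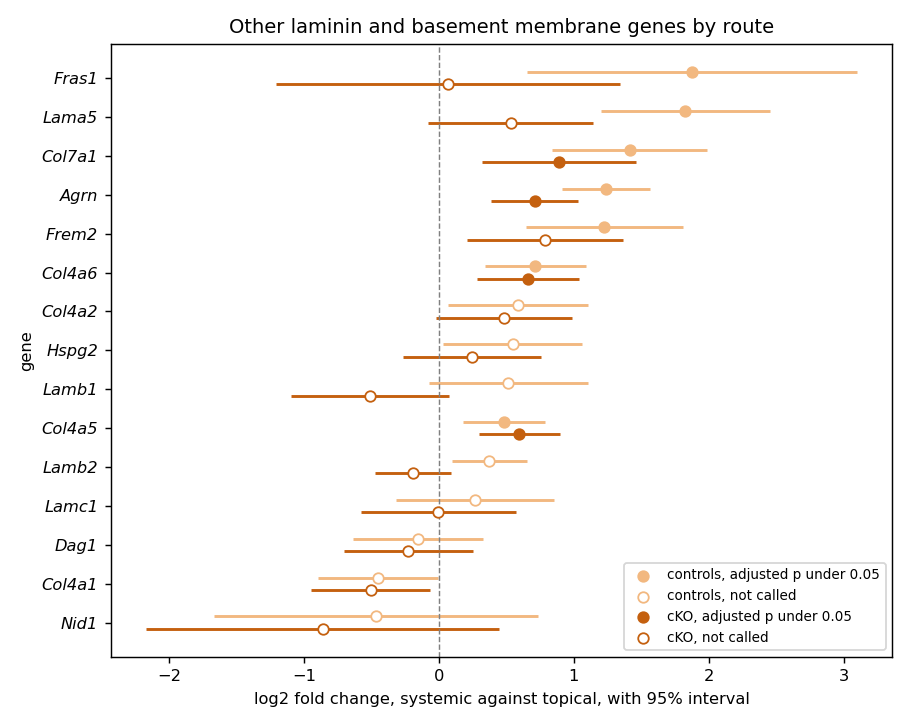
Points are edgeR log2 fold changes of systemic against topical libraries for 15 of the 16 laminin and basement membrane genes tested, with 95% intervals, in controls and in cKO mice; filled points have an adjusted p under 0.05. In controls 7 points are filled and in cKO 4, all to the right of 0.

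Other integrins, tetraspanins, linkers and proteases moved in both directions. Of 10 integrin and tetraspanin genes tested (Itga9 was under the count filter), only Cd151 passed anywhere. Its product binds the laminin-binding integrins. This made 1 of 10 called by route among controls, beside 18.3% of all genes, and 1 of 10 in the systemic genotype contrast, beside 1.89%. Cd151 was lower in systemic controls (48.4 ± 4.65 CPM) than in topical controls (89.4 ± 18.1 CPM), a log2 fold change of -0.88 (adjusted p 0.00137, edgeR). It was higher in systemic cKO (81.1 ± 19.3 CPM) than in systemic controls by 0.74 (adjusted p 0.0236), a call lost in 6 of the 10 fits without a single library (adjusted p up to 0.0851, without systemic cKO 6). Both contrasts share the systemic control libraries. The 2 values of Cd151 were -0.027 and 0.021 with the satellite-like split as a covariate. Both take the split's effect from systemic cKO 2 alone, so they cannot tell split from route or genotype.

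Of 18 integrin linkers tested (Parvb was under the count filter), 4 were higher and 2 lower in systemic than in topical controls, beside the 18.3% of all genes called. Tln1 (0.71), Tns3 (0.57) and Fermt1 (0.43, encoding kindlin-1, an integrin activator) were among the higher ones, and Tns4 (-0.74) and Parva (-0.65) the lower ones. Parva was also lower by route among cKO mice, at -0.67, the only linker called there, where 9.22% of all genes were. Once the satellite-like split was a covariate, 0 of the 18 were called by route among controls, and Tln1 was at 0.37 and Tns4 at -0.34. Here too the split's effect rests on systemic cKO 2 alone, and split and route cannot be told apart. Leaving out single libraries lost Tns3 in 8 of 10 fits (adjusted p up to 0.125, without topical control 3), Fermt1 in 4 of 10 (0.103, without systemic control 3) and Parva among cKO mice in 1 (0.0501, without topical cKO 5).

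Of 9 protease genes tested (Mmp9 was under the count filter), Plau and Plat, the plasminogen activators, were lower in systemic than in topical controls, by -1.41 and -1.04 on the log2 scale, 2 of 9 beside the 18.3% of all genes called. Among cKO mice Plau was lower by -0.70 and Adam17, a sheddase of membrane proteins, was higher by 0.53, again 2 of 9, beside 9.22% of all genes. The calls of Plat by route in controls and of Plau by route in cKO mice were lost in 7 and 8 of 10 fits without a single library (highest adjusted p 0.123, topical control 7 left out, and 0.133, systemic cKO 5 left out). Among 7 basal keratins and regulators, 1 was called by route among controls, beside 18.3% of all genes. This was Krt15, at 9094 ± 2117 CPM in topical controls and 21676 ± 7425 CPM in systemic controls (log2 fold change 1.25, adjusted p 0.00922 by edgeR), while Krt5, Krt14 and Trp63 did not pass in any of the 5 contrasts. Given the satellite-like split as a covariate, 0 of the 9 proteases and 0 of the 7 keratins and regulators were called by route among controls (Krt15 1.10, adjusted p 0.939, and Plau -1.56, adjusted p 0.381, edgeR). The split's effect rests on systemic cKO 2 alone, so lost calls there cannot tell split from route.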

How the data were processed

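Bulk RNA-seq was done on 20 libraries of sorted mouse keratinocytes, 5 mice in each of 4 groups. The authors deposited raw read counts per gene, whole numbers with no normalization. Per the labels' protocols, libraries were made with SmartSeq II and sequenced on an Illumina NovaSeq, and the submitters' processing notes name STAR, featureCounts and the build GRCm38 (mm10). Versions, annotation and strand setting are not given in the sources used here. Every count column matched 1 sample title, and no 2 libraries held the same values.

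Counts were tested with edgeR 4.0.16 in R 4.3.3: filterByExpr by group (minimum count 10, minimum total 15), TMM scaling, and robust quasi-likelihood fits on all 20 libraries with 1 coefficient per group. Benjamini-Hochberg adjustment ran over 12424 genes, with an adjusted p under 0.05 counted as a call. The labels call each library a mouse. Intervals are 95%. Levels are CPM, and correlations use log2 CPM with a prior count of 2. Gene models came from GENCODE M21 on GRCm38 and promoter windows from RefSeq. The steps were tested on simulated data. DESeq2 1.42.0, other filters and scalings, covariates and left-out libraries were tried as alternatives.

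The 9 genes, the other gene lists and the marker lists were chosen with earlier results of these data known. Named were all 9 members, called genes of the fixed lists (at most 6 per list and contrast by adjusted p), the 5 genes most like the members' mean, and the 3 most like Itgb4 and Lamb3. Promoter windows of Itga6, Itgb4, Plec and Lama3 were not used here. Of the genes this rule names, 2 are not reported here.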

Additional observations from a re-analysis of the deposited data

Results flagged for a closer look

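In each of the 36 groups of 5 libraries (9 genes in 4 groups), the gap between an extreme library and its nearest neighbour was compared with the range of the group. In 2 groups it took more of the range than Dixon's 95% critical value of 0.71, and chance alone does so in about 1 in 20 groups. Dst, the linker of hemidesmosomes to keratin, was at 485.652 CPM in systemic cKO 6, where the next library of that group was at 246 CPM and the lowest at 151 CPM. Without that library the log2 fold change of Dst by route among cKO mice moved from 0.25 to -0.074. Itgb1, the beta subunit of the second laminin receptor, was at 161.637 CPM in topical control 5, where the next was at 105 CPM and the lowest at 83.0 CPM. Without that library the log2 fold change of Itgb1 in cKO against control after topical tamoxifen moved from 0.19 to 0.37.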

How the results depend on the processing

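Of 540 log2 fold changes of the 9 genes with a single library left out, 515 kept their direction and side of the threshold, 20 changed sign, 3 lost a call and 2 gained one. Of 351 under the other alternatives, 12 changed sign, 3 lost a call, 4 gained one and the rest kept both. The cause was not tested in any of these cases. The number of the 9 genes called by route among controls (1) was 2 with the DESeq2 Wald test and 2 with only genes of at least 5 CPM. It was 3 with the mitochondrial share as a covariate (Plec, Itga3 and Itga6). It was 0 with no filter on low counts, with the replicate block, and with the satellite-like covariate, whose effect rests on systemic cKO 2 alone. It ran from 0 to 2 with a single library left out, and was 0 in the other 4 contrasts under every alternative.

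Same-numbered libraries of the groups compared had correlations of deviations from -0.31 to 0.34, and not every pair was over 0.1, so the numbers were not treated as pairs. Across groups not compared directly, the highest was 0.51 (topical cKO 3 with systemic control 3). In each contrast, 2 of 6, 2 of 6, 1 of 8 and 1 of 8 libraries correlated best with their own number. With the replicate number as a block, Plec by route among controls was 0.63 (adjusted p 0.0635, edgeR), all-gene calls were 9 for topical genotype and 0 for the interaction, and 4 topical genotype values turned below 0: Col17a1 (-0.073), Lama3 (-0.042), Lamb3 (-0.010) and Itgb1 (-0.081).

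With the satellite-like covariate, values of the opposite sign were 0.17 (Lama3), 0.062 (Lamb3) and 0.29 (Itgb1) for systemic genotype, 0.14 (Lama3) and 0.10 (Itgb1) for the interaction, and -0.100 (Lama3) and -0.33 (Itgb1) for route among controls. The split's effect in those fits rests on systemic cKO 2 alone. With the mitochondrial covariate Lamb3 for systemic genotype was 0.18. Left-out libraries moved topical genotype from -0.062 to 0.10 for Lama3 and from -0.020 to 0.35 for Itga6. They moved systemic genotype from -0.25 to 0.16 for Lamb3 and from -0.19 to 0.035 for Itgb1. For route among cKO mice the ranges were -0.034 to 0.22 for Lamb3, -0.035 to 0.30 for Itga6, -0.099 to 0.096 for Itga3 and -0.074 to 0.40 for Dst.

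Calls over all genes were 16 (topical genotype), 235 (systemic genotype), 31 (interaction), 2277 (route among controls) and 1145 (route among cKO). With the DESeq2 Wald test the first 3 were 42, 548 and 315. The interaction gave 49 with only genes of at least 5 CPM, and systemic genotype gave 35 with only its own libraries. With the satellite-like covariate, systemic genotype gave 0, the interaction 0 and route among controls 1; with the mitochondrial covariate these were 1320, 364 and 3496. With single libraries left out the counts ran from 10 to 19, 81 to 787, 16 to 470, 1463 to 2524 and 746 to 1218 in that order. Other scalings of levels moved no group mean by more than 1 SD. Another prior count moved the median r of the member pairs by less than the SD of r over pairs.

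Depth did not limit the members, which held at least 424 counts in every library. Read counts cannot separate isoforms or a change in cell makeup.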
